A study of Mus musculus with 12 samples.

Results

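Predicted genes carry a provisional Gm symbol followed by a number, and 109 of them were read at high levels in some mice and near 0 in others. The genes were chosen by their measured levels: the highest library had to reach at least 5 CPM (counts per 1000000 of the library total), and the lowest library had to be at most 0.1 of that. Of the 38924 genes in the files, 13724 had a Gm name, 430 of these reached 5 CPM, and 109 met both conditions. That they switch between mice is therefore a description and not a finding.

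RNA came from whole spinal cord of 12 mice aged 1 week, with 1 library per mouse. The groups were female P278KY, male P278KY, female wt and male wt, with 3 mice in each. Mice labelled P278KY had 1 mutant and 1 normal copy of Gars, which encodes the enzyme that loads glycine onto its tRNA, and mice labelled wt had no mutant copy. Both genotypes had the background B6J;CAST, a mixture of the inbred strain C57BL/6J and the wild-derived strain CAST. Each library is named by its label: sex, genotype and mouse number.

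Most predicted genes of this kind are processed pseudogenes, which arise when the messenger RNA of a gene is copied back into the genome without its introns. A young copy differs from its source by few bases, so a sequenced fragment can fit both, and counting software must divide it between them. C57BL/6J and CAST differ at many single bases, and in a mixed background each mouse inherits its own patchwork of chromosome segments from the 2 strains. The strain origin of segments was not genotyped in the files used here, so whether a level class follows a strain allele was not tested.

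Library totals ran from 27713981 to 43219891 expected counts. All 10 spinal cord markers reached 1 CPM in at least 1 library, and their summed level was 14337 to 23815 CPM in P278KY libraries and 14419 to 24379 CPM in wt libraries. Skeletal muscle markers, 10 of 10 at 1 CPM or more in some library, summed to 67.0 to 2544 CPM in P278KY libraries and 11.8 to 982 CPM in wt libraries. Their part in the results was not tested. Sex marks went against the label in female wt 14, which had Y-linked and almost no Xist RNA, and in male wt 19, which had the reverse. In bulk tissue, fewer cells of a type and less RNA per cell cannot be told apart.

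Of the 109 genes, 75 are processed pseudogenes in the GENCODE M21 annotation and 6 more are transcribed processed pseudogenes. A further 13 are protein-coding, 6 are lincRNA, 1 is antisense, 1 is an unprocessed pseudogene and 1 a pseudogene of no stated kind, and 6 were not matched to that annotation. For 93 genes, a similar gene was found elsewhere in the genome: a transcript of at least 95% identity over at least 50% of the predicted gene's transcript, on another chromosome or more than 5 Mb away. Where several matched, a protein-coding gene was taken first and then the one with the highest mean level, by a rule chosen after the values were seen. The gene taken need not be the closest match. A predicted gene called a copy below is one matched in this way, and its true origin was not tested. Identity had a median of 99.4%, and 66 of the 93 were at 99% or more. The 93 fell into 80 families of 1 similar gene each, of which 10 held at least 2 predicted genes. Deposited counts above 0 were not whole numbers, beyond a tolerance of 0.005, in 98.0% of the values of the 109 genes and in 31.0% of those of all genes.

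The sequences below show how little separates such pairs, and were chosen because these families carry the results that follow. Each line holds 60 bases of coding sequence, from the GENCODE M21 transcripts on GRCm38, read on the coding strand. Capitals mark the positions at which the lines of a family differ. Positions count from 1 at the A of the start codon of the similar gene.
Cbx3 at chr6:51481757-51481816 on the plus strand: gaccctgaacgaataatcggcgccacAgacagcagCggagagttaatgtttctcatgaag
Gm10068 at chr1:58647051-58647110 on the plus strand: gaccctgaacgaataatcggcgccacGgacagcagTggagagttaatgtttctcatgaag
Gm6984 at chr14:73955129-73955188 on the minus strand: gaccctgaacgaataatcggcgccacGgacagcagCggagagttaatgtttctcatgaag
Atp6v0c at chr17:24164822-24164881 on the minus strand: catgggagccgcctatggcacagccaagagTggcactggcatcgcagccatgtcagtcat
Gm15487 at chr6:37806166-37806225 on the plus strand: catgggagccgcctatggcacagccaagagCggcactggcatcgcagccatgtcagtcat
Stmn1 at chr4:134472861-134472920 on the plus strand: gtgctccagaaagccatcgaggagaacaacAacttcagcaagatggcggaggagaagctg
Gm11223 at chr4:69925777-69925836 on the minus strand: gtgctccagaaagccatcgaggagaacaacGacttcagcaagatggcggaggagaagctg
Gapdh at chr6:125163211-125163270 on the minus strand: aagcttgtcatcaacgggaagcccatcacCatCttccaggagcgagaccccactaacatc
Gm20899 at chrY:38619972-38620031 on the plus strand: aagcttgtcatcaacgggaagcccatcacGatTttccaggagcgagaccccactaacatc

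Over the 552 coding bases of Cbx3, Gm6984 differed only by A390G, and Gm10068 by A390G and C399T. Gm15487 differed from Atp6v0c only by T111C over 465 coding bases, and Gm11223 from Stmn1 only by A274G over 450. Gm12033, another Gapdh copy, differed only by T582C over 1002 coding bases. Gm20899, a Gapdh copy on the Y chromosome, differed by T141C, T228C, C297G, C300T and C669T. Elsewhere in these aligned coding bases the genes of a pair read the same.

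Levels fell into 2 classes with little between them. The rule itself puts a high and a low library in every gene, so part of both classes was fixed in advance. A library was called low for a gene at or under 0.1 of that gene's highest CPM, high at or above 0.5, and intermediate otherwise. Of 1308 values, 678 were low, 87 intermediate and 543 high, and in 331 the count was exactly 0. A total of 496 values lay at or under 0.01 of the highest, 483 at or above 0.7 of it, and only 32 between 0.4 and 0.6. No intermediate library occurred in 87 of the 109 genes. Within the high class, a gene's highest library was a median of 1.29 times its lowest, over genes with more than 1 high library. The bound of 0.5 limits this ratio by definition. A count of 0 allows up to 3 counts, or 0.0694 to 0.108 CPM depending on the library, by counting error only.

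**Figure D1:**
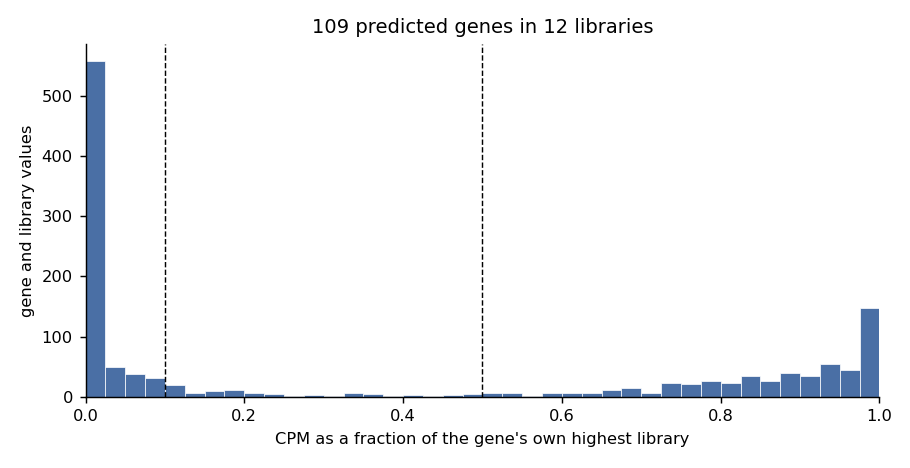
Each of 1308 values (109 predicted genes in 12 libraries) is plotted by its CPM as a fraction of that gene's own highest library, with the number of values on the vertical axis and dashed lines at 0.1 and 0.5. Values pile up near 0 and above 0.7, and 32 lie between 0.4 and 0.6.

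The highest single levels belonged to copies of abundant housekeeping messages. CPM is not scaled to transcript length, so it is compared here only within a gene or a family. Gm12033, the Gapdh copy, stood at 410 to 472 CPM in 5 P278KY libraries with 1.38 CPM in male P278KY 5, and at 426 to 463 CPM in 5 wt libraries with 0 in female wt 1. Gapdh encodes a glycolytic enzyme. Gm26825, which resembles Hspa8, the gene of a constitutive heat shock protein, stood at 327 and 344 CPM in female P278KY 10 and male P278KY 13 and at 0 to 0.313 CPM in the other 4 P278KY libraries. In wt libraries it stood at 341, 345 and 323 CPM in mice 1, 6 and 19 and at 0 in the other 3. Gm8355, a further Hspa8 copy, was high in the same 5 libraries, at 76.9 and 78.8 CPM in P278KY and at 78.3 to 87.2 CPM in wt.

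Gm10116, which resembles the ferritin light chain gene Ftl1, was high in 3 P278KY libraries at 169 to 188 CPM and in 4 wt libraries at 145 to 215 CPM. Its remaining libraries stood at 0.533 to 1.31 CPM in P278KY and at 0.650 and 1.11 CPM in wt. Gm15710, a copy of the ribosomal protein gene Rpl13, was high at 136 and 143 CPM in female P278KY 7 and 10 and at 143 and 139 CPM in female wt 1 and male wt 9.

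Some genes were high in very few mice. Gm4735 and Gm5506, which resemble the enolase gene Eno1, were high only in female P278KY 7, at 108 and 79.7 CPM, and male wt 9, at 113 and 78.4 CPM. Gm14150 resembles the alpha tubulin gene Tuba1a, at 97.4% identity. It reached 0.773 to 1.22 CPM in P278KY libraries, and in wt libraries 216 CPM in male wt 6 and 0.654 to 1.22 CPM elsewhere. In all, 8 genes were high in 1 library only, 61 in 2 to 5, 36 in 6 to 9 and 4 in 10 or more.

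Gm20899 lies on the Y chromosome, yet it did not follow the sex marks. It stood at 110, 125 and 127 CPM in the female P278KY libraries, where Xist was at 945 to 1098 CPM and Ddx3y, a Y-linked helicase gene, at 0 to 0.0632 CPM. It was at 0 in male P278KY 5, where Ddx3y stood at 84.0 CPM. Among wt libraries, it was at 0 in female wt 1 and at 117 to 130 CPM in the other 5. Gm12033 was low in the same pair of mice, and so were Gm9800, a copy of the prothymosin gene Ptma, and Gm5514, which resembles Ldhb. Gm9800 was at 91.9 to 111 CPM in the other 5 P278KY libraries and at 95.2 to 150 CPM in the other 5 wt libraries. Of the 109 genes, none was low in exactly the Xist-bearing or exactly the Y-bearing libraries.

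Mice differed widely in how many of the 109 genes were high. The number high was 16, 69 and 57 in female P278KY 4, 7 and 10, and 12, 8 and 73 in male P278KY 3, 5 and 13. It was 38, 12 and 54 in female wt 1, 2 and 14, and 73, 75 and 56 in male wt 6, 9 and 19. Mice 2, 3, 4 and 5, of which 3 were P278KY and 1 wt, were thus high for at most 16 genes, and every other mouse for at least 38. The sets of high libraries were diverse, with 56 distinct sets over the 109 genes.

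The classes ran together along the chromosomes of the similar genes more than along those of the predicted genes. Pairs of predicted genes whose similar genes started less than 10 Mb apart, 46 pairs, shared a class in a mean of 11.4 of 12 libraries, and 91.3% of these pairs matched in at least 11. Pairs whose similar genes lay over 10 Mb apart on 1 chromosome, 167 pairs, matched in a mean of 8.53 libraries, and the 4049 pairs on different chromosomes in a mean of 6.90. By the position of the predicted genes themselves, and leaving out pairs whose similar genes were close or shared, 23 pairs under 10 Mb apart matched in a mean of 7.52 libraries and 4010 pairs on different chromosomes in a mean of 6.95. Of the 46 pairs with close similar genes, 44 were themselves on different chromosomes, with a mean of 11.5 libraries matched. The 16 pairs that share the same similar gene matched in a mean of 10.9 libraries, and 13 of them in at least 11. Many of the 46 close pairs come from 1 block on chromosome 17, described next, so that locus is counted many times. Pairs share genes and all share the same 12 libraries, so these values are descriptions.

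**Figure D2:**
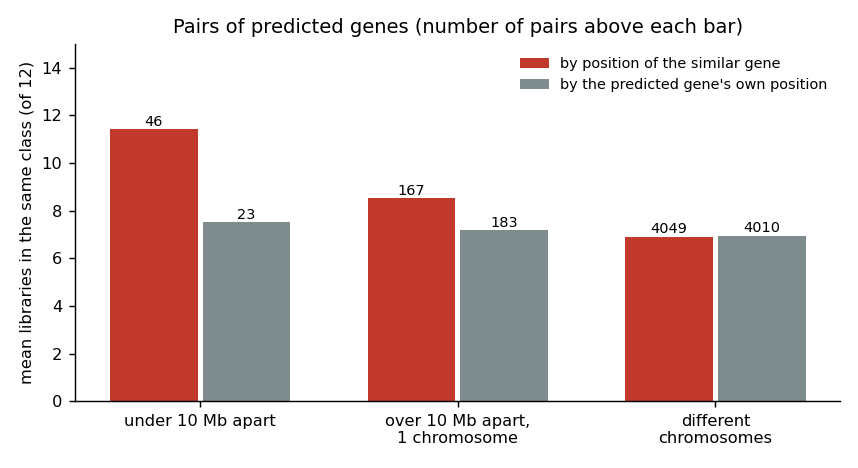
Bars give the mean number of libraries, of 12, in which both predicted genes of a pair had the same level class, for pairs under 10 Mb apart, over 10 Mb apart on 1 chromosome and on different chromosomes, with the number of pairs above each bar. By the position of the similar gene (red) the mean is 11.4 for close pairs and 6.90 on different chromosomes, and by the predicted genes' own position (grey, without pairs whose similar genes are close) it is 7.52 and 6.95.

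Chromosome 17 gave the largest such block. Between the similar genes Atp6v0c at 24.2 Mb and Rps18 at 34 Mb lie Rnps1, Srsf3 and Glo1, and the 7 predicted genes that resemble these 5 sit on other chromosomes. All 7 were high in female P278KY 7 and 10, male P278KY 13, female wt 1 and 14, and male wt 6, 9 and 19. All 7 were low in female P278KY 4, male P278KY 3 and 5, and female wt 2. Gm15487, the copy of the proton pump subunit gene Atp6v0c, stood at 63.5 to 74.6 CPM in the 3 high P278KY libraries and 60.4 to 74.2 CPM in the 5 high wt libraries, and was at 0 in all 4 low ones. Gm10260 and Gm26619, copies of the ribosomal protein gene Rps18 that overlap each other on opposite strands of chromosome 13, shared their class in 12 of 12 libraries.

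H2-Ea-ps, the pseudogene-labelled major histocompatibility gene on chromosome 17, is known to be silent in C57BL/6J. It was at 0 in female P278KY 4, male P278KY 3, male P278KY 5 and female wt 2, the 4 libraries in which the block on chromosome 17 was low. In the others it stood at 0.377 to 0.533 CPM in P278KY and 0.143 to 0.616 CPM in wt. These levels rest on few counts. Nnt, which carries a deletion in C57BL/6J, showed no such classes, at 15.3 to 18.5 CPM in P278KY libraries and 13.6 to 24.6 CPM in wt libraries. Whether a count over the whole gene shows that deletion was not tested.

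On some other chromosomes the set of high libraries changed stepwise. Not all neighbours went together. On chromosome 3, Gm15429, which resembles Aph1a at 95.9 Mb, shared a class with Gm7901, which resembles Phgdh at 98.3 Mb, in only 5 of 12 libraries. On chromosome 4, the copy of Hmgn2, a nucleosome-binding protein gene at 134.0 Mb, was high in female P278KY 7 and in male wt 6 and 9. The copies of Stmn1, a microtubule regulator gene at 134.5 Mb, and of Eno1 at 150.2 Mb were high only in female P278KY 7 and male wt 9. On chromosome 9, the Hspa8 copies at 40.8 Mb and those of Eef1a1, Morf4l1 and Rpl29 at 78.5, 90.1 and 106.4 Mb had the same classes in every library except female wt 14. On chromosome 10, the copies of Eef2 and Tdg were high in male P278KY 13, female wt 14 and male wt 9 and 19. The Ndufa12 copy at 94.2 Mb lacked male wt 9 of these, and the Myl6 and Sarnp copies at 128.5 and 128.8 Mb were high only in male P278KY 13 and male wt 19. These positions are those of the similar genes.

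**Figure D3:**
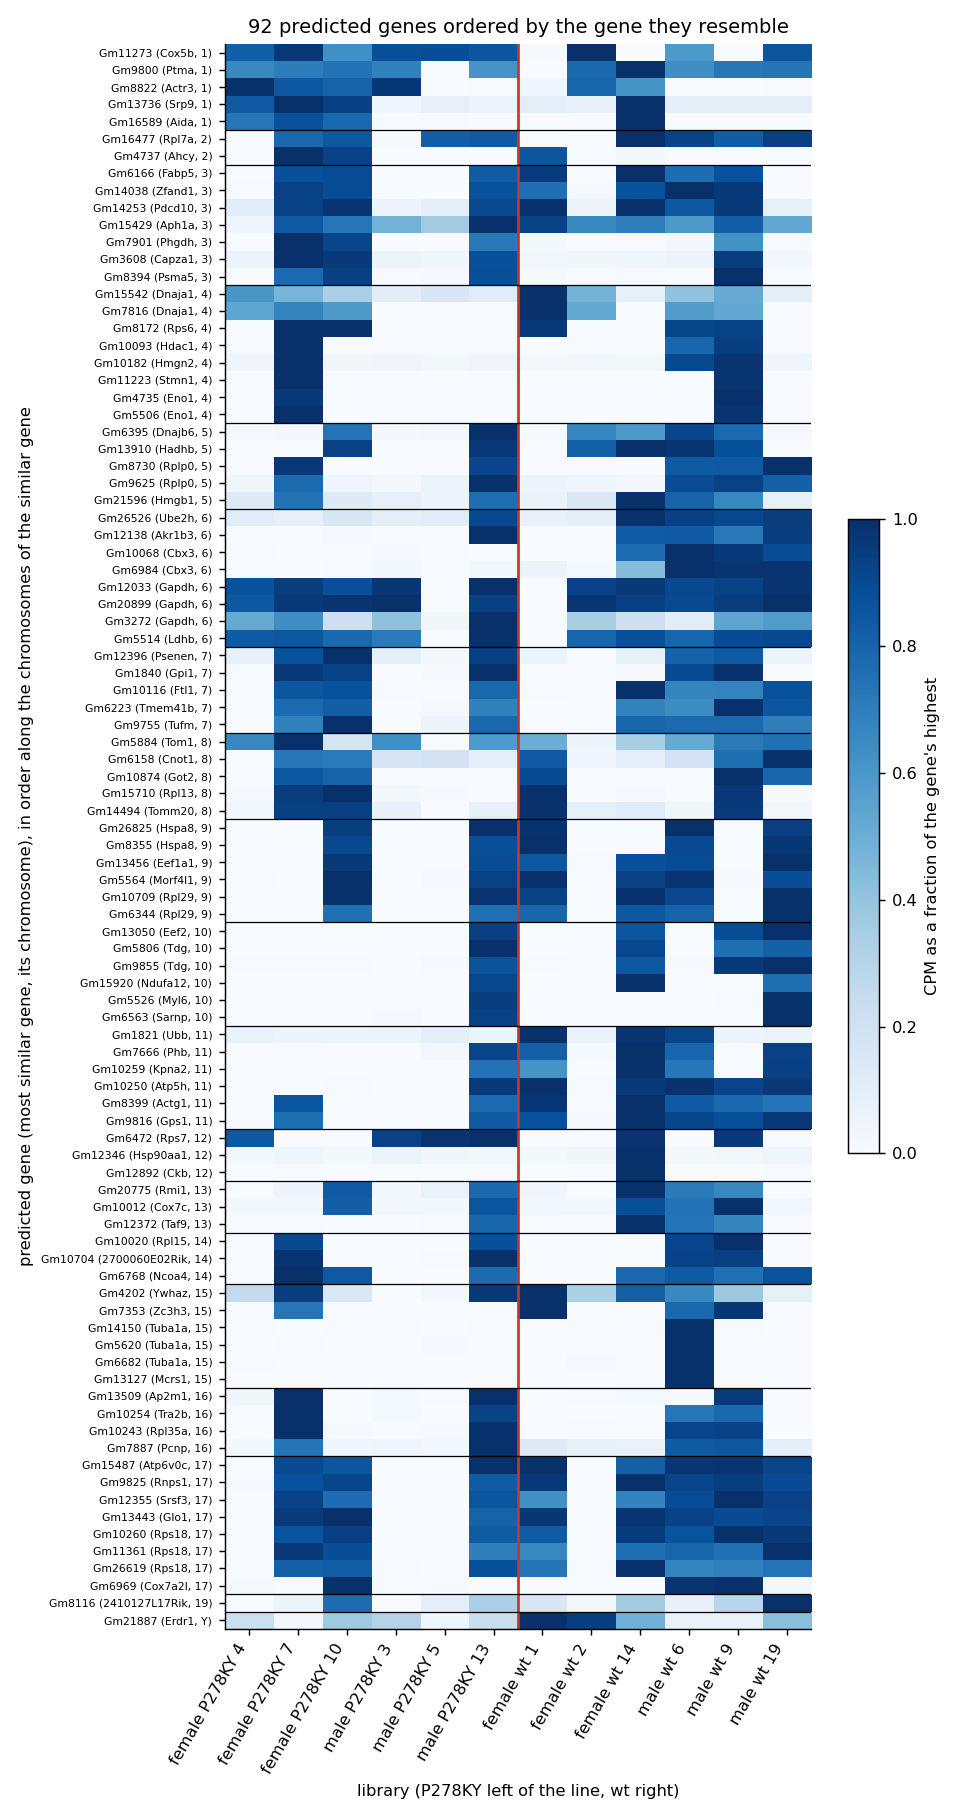
Each row is 1 of 92 of the 93 predicted genes with a similar gene, labelled with its similar gene and that gene's chromosome, in order along the chromosomes of the similar genes. Each column is a library, with P278KY left of the red line and wt right of it, and the colour gives the CPM as a fraction of the row's highest. Rows next to each other on 1 chromosome mostly share their dark and light libraries, as in the 7 rows of chromosome 17 that are light in female P278KY 4, male P278KY 3, male P278KY 5 and female wt 2.

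Adding the predicted genes to their similar gene levelled most families. The coefficient of variation (CV) over 12 libraries had a median of 6.47% for the similar gene summed with its predicted genes and 10.5% for the similar gene alone, and the sum varied less in 66 of 80 families. In the 53 families where the predicted genes reached 10% of the sum, the sum varied less in 47, with median CVs of 6.76% for the sum and 13.8% for the gene alone. Gapdh alone stood at 371 to 464 CPM in 5 P278KY libraries and 1141 CPM in male P278KY 5, and at 370 to 448 CPM in 5 wt libraries and 1279 CPM in female wt 1. With its 3 predicted genes added, it was 896 to 1143 CPM in P278KY and 914 to 1279 CPM in wt, and the CV was 10.6% against 58.1% alone. Rpl13 had a CV of 7.94% for the sum and 36.4% alone. In 14 families the sum varied no less. Rps6, a ribosomal protein gene, stood farthest the other way, with a CV of 78.8% with Gm8172 added and 17% alone. Its sum was 10.7 to 65.2 CPM in P278KY libraries and 10.1 to 65.2 CPM in wt libraries, while Rps6 alone was at 10.7 to 14.7 CPM in P278KY and 8.26 to 15.2 CPM in wt. Ubb, a polyubiquitin gene, had a CV of 6.96% with Gm1821 added and 5.35% alone.

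**Figure D4:**
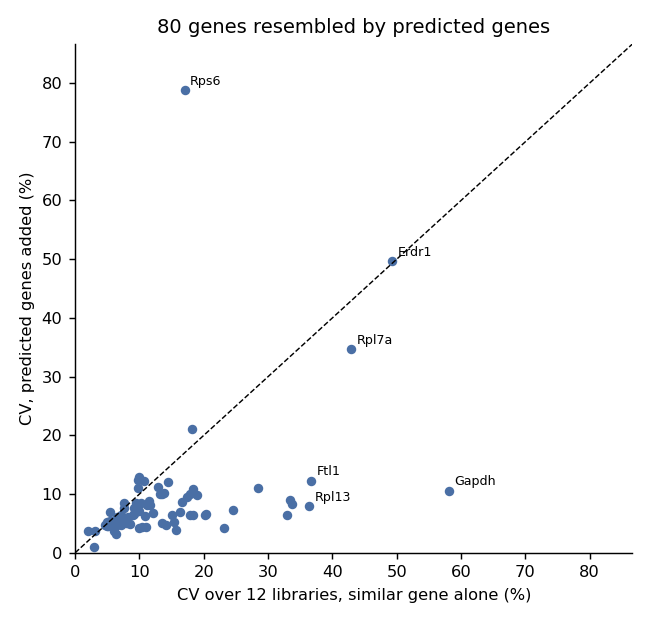
Each point is 1 of 80 similar genes, with the CV of its own CPM over 12 libraries on the horizontal axis and the CV after its predicted genes were added on the vertical axis, both in percent. Of the points, 66 lie below the dashed line of equal spread, among which Gapdh is farthest from it at 10.6% with its copies and 58.1% alone. Rps6 lies far above the line, at 78.8% with its copy and 17% alone.

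No predicted gene was called by genotype. The test was edgeR's quasi-likelihood test with labelled sex as a term and Benjamini-Hochberg adjustment over 17995 genes. Of the 109 genes, 98 passed its filter on low counts, and 0 of these had an adjusted p under 0.05, against a background of 0.00556% of all genes tested (1 gene). Among the 98, 3 had an unadjusted p under 0.05, which is 3.06% beside 4.09% of all genes. DESeq2 also called 0, beside 0.185% of all genes, and gave no adjusted p for 38 of the 98, Gm6984 and Gm10068 among them. Its smallest adjusted p among the others was 0.0700, for Gm1821. The median standard error of a log2 fold change was 1.54 for the 98 and 0.09 for all genes tested. The genotypes overlapped in every one of the 109 genes. Among all genes tested, 0.222% did not overlap, 0.0778% with P278KY above wt in every library and 0.144% with P278KY below. For the genotype by sex interaction, edgeR called 0 of 98 beside 0% of all genes, with 5 of the 98 at an unadjusted p under 0.05, where 10.9% of all genes were. DESeq2 called 9 of the 98 for the interaction, beside 1.73% of all genes with an adjusted p (279 of 16164). Their fitted log2 differences ran from -22.1 ± 5.89 for Gm10259 to 30 ± 6.01 for Gm10093. The smallest in size was 7.81 ± 1.76, for Gm10182. Where most counts are at or near 0, as for Gm10093, differences this large depend on how such counts are treated. That does not hold for Gm10182, whose lowest library, male P278KY 5, had 36.4 expected counts. As edgeR called 0 of the 98, these calls are not read as effects of sex.

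The high values were also counted by genotype. Of the values, 235 of 654 in P278KY libraries were high, or 35.9%, and 308 of 654 in wt libraries, or 47.1%. Of the 109 genes, 19 were high in more P278KY than wt libraries, 64 in fewer and 26 in equal numbers. The range of genes high per library, 8 to 73 in P278KY and 12 to 75 in wt, overlapped almost wholly, and the genes share their mice, so these counts are no test of genotype. Without mice 14 and 19, whose sex marks disagree with their labels, 0 members were called.

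Low levels in all 6 P278KY libraries occurred in 10 genes, and low levels in all 6 wt libraries in none. The mice high for few genes were mostly P278KY: mice 3, 4 and 5, with 12, 16 and 8 genes high. Among wt mice only mouse 2, with 12 genes high, was like them. No such share was formed over all genes, so this split is no test of genotype. In 7 of the 10 only 1 wt library was high. The other 3 were Gm10068 and Gm6984, both copies of Cbx3, and Gm1821. Cbx3 encodes heterochromatin protein 1 gamma, which binds methylated histone H3. Gm10068 stood at a lowest, median and highest of 0, 0.0698 and 0.316 CPM in P278KY libraries, and of 0, 25.2 and 30.5 CPM in wt libraries. Gm6984 stood at 0, 0.183 and 1.04 CPM in P278KY libraries and at 0.675, 35.4 and 50.1 CPM in wt libraries. Both were low in female wt 1 and 2 as well, so wt mice were split and the genotypes overlapped.

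The fitted log2 fold change, P278KY over wt, was -6.13 ± 1.04 (SE, n = 6 each) for Gm6984, with an edgeR adjusted p of 0.312, and -7.39 ± 1.63 for Gm10068, with an edgeR adjusted p of 0.803. Fitted folds of this size depend on how counts near 0 are treated. Gm1821, the Ubb copy, stood at 6.51 to 11.6 CPM in P278KY libraries, and at 116 to 127 CPM in female wt 1, female wt 14 and male wt 6 with 6.12 to 8.52 CPM in the other 3 wt libraries. Its log2 fold change was -2.92 ± 0.90, with an adjusted p of 1.00 by edgeR and 0.0700 by DESeq2. Gm26527, a lincRNA overlapping the arylsulfatase B gene Arsb, had a median of 3.06 CPM in P278KY and 0.319 CPM in wt libraries. Gm13242, a protein-coding predicted gene on chromosome 4, had a median of 6.98 CPM in P278KY and 0.0725 CPM in wt libraries, with female P278KY 10 low at 0.245 CPM and male wt 19 high at 8.43 CPM. Neither passed the test, with log2 fold changes of 2.52 ± 1.15 for Gm26527 and 2.95 ± 1.45 for Gm13242.

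Cbx3 itself lies 3.55 Mb from Gars on chromosome 6. Its own level was 168 to 188 CPM in P278KY libraries (183 ± 7.31, SD, n = 6) and 119 to 169 CPM in wt libraries (132 ± 19, SD, n = 6). The 4 wt libraries in which Gm10068 was high were the 4 lowest for Cbx3, at 119 to 123 CPM. With both copies added, the sum was 169 to 188 CPM in P278KY libraries (183 ± 7.07) and 139 to 201 CPM in wt libraries (179 ± 25.1). The log2 fold change of Cbx3 alone was 0.49 ± 0.08, with an adjusted p of 0.124 by edgeR and of 1.26e-05 by DESeq2. With the copies added it was 0.06 ± 0.07, with an adjusted p of 1.00 by both. Cbx3 was thus called by genotype under DESeq2 only when its copies were counted apart. Without female wt 2, the fold change of Cbx3 alone was 0.57 and its edgeR adjusted p 0.00394.

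**Figure D5:**
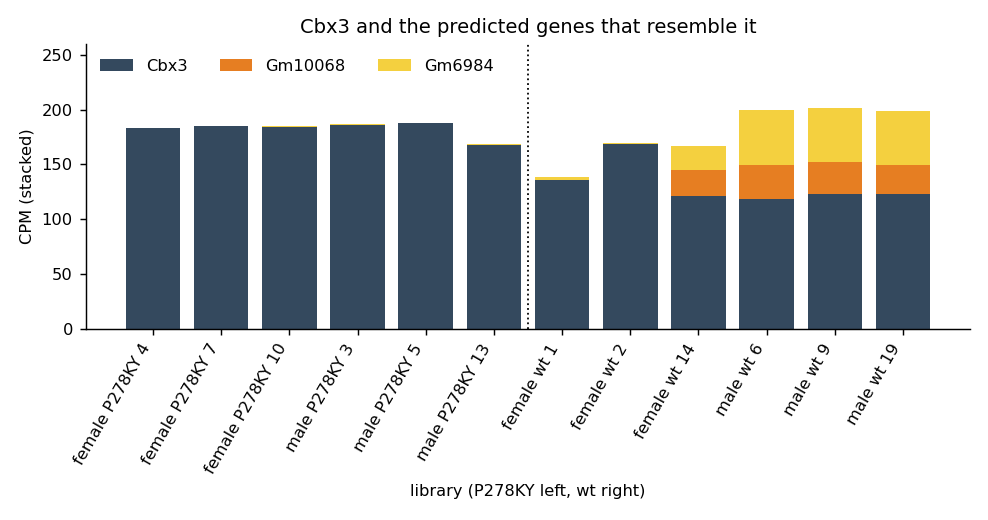
Stacked bars give the CPM of Cbx3 (dark), Gm10068 (orange) and Gm6984 (yellow) in each library, with P278KY left of the dotted line and wt right of it. Cbx3 alone is at 168 to 188 CPM in P278KY libraries and 119 to 169 CPM in wt libraries, while the whole bars reach 169 to 188 CPM and 139 to 201 CPM.

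The same sum was formed for the other families. Of 80 similar genes, 4 had an unadjusted p under 0.05 for genotype with their predicted genes added and 4 when counted alone, of which 2 were shared. Of all genes tested, 4.09% had such a p. The median standard error was 0.06 with the predicted genes added and 0.09 alone, and it was smaller in 69 of the 80. Atp5h, an ATP synthase subunit gene resembled by Gm10250, had a log2 fold change of -0.00098 ± 0.04 with Gm10250 added and of 0.19 ± 0.06 alone. Neither had an edgeR adjusted p under 0.05.

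By their own position, 3 predicted genes lay within 20 Mb of Gars, Gm7887 and Gm10243 at 6.51 Mb and Gm15487 at 17.2 Mb. Each was high in some and low in other mice of both genotypes. Gm10243, a copy of the ribosomal protein gene Rpl35a, was high in female P278KY 7 and male P278KY 13, at 54.3 and 53.8 CPM, and in male wt 6 and 9, at 49.7 and 50.6 CPM. Gm7887, which resembles Pcnp, was high in the same 4 libraries, at 7.01 and 9.50 CPM in P278KY and 7.94 and 8.08 CPM in wt. Rpl35a and Pcnp both lie on chromosome 16. Their log2 fold changes were 1.85 ± 2.56 for Gm10243, 0.35 ± 1.19 for Gm7887 and -0.77 ± 1.57 for Gm15487. By the position of the similar gene, the pair of Cbx3 copies lay nearest to Gars. The next were the copies of Akr1b3 at 20.7 Mb, Gm12138, and of Ube2h at 24.7 Mb, Gm26526, whose high libraries were male P278KY 13 and, in wt, female 14 and male 6, 9 and 19.

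Some genes without a distant similar gene shared their classes too. Gm3373, Gm3591 and Gm8108, related protein-coding predicted genes near each other on chromosome 14, were highest in female P278KY 7 and male P278KY 13 and in male wt 6 and 9. Gm8108 stood at 9.94 and 13.5 CPM in that pair of P278KY libraries and at 15.9 and 14.3 CPM in that pair of wt libraries, and at 1.30 to 2.74 CPM in the rest. Gm3373 and Gm3591 shared their class in 11 of 12 libraries. For the interaction, Gm10182, the Hmgn2 copy, was among the 2 with the smallest p, with a difference of 7.80 ± 2.17 on the log2 scale (female minus male effect). Its edgeR adjusted p was 0.270.

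Just inside the bounds were Gm16168, an antisense gene with no similar gene, and Gm9770, which resembles Ctdsp2, with highest levels of 5.09 and 5.11 CPM. Just outside were Gm26751 and Gm10073 at 4.95 and 4.97 CPM. For the ratio of lowest to highest, Gm8108 and Gm15542, a copy of the chaperone gene Dnaja1, lay just inside at 0.0812 and 0.0849, and Gm5483 and Gm14434 just outside at 0.101 and 0.106. The same conditions were met by 109 of 430 predicted genes that reached 5 CPM, or 25.3%. They were met by 28 of 58 genes whose names end in -ps, or 48.3%, by 3 of 422 genes with Rik names, or 0.711%, and by 204 of 12394 genes of other names, or 1.65%.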

How the data were processed

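Libraries were stranded and made from poly(A) RNA, per the labels' protocols. The submitters' processing notes name Bowtie2 2.2.0 and RSEM 1.2.12. Build, annotation and strand setting were not given in the sources used. The authors deposited an expected count, an estimated number of fragments that need not be whole, and a TPM value for each of 38924 genes in each library, per the file headers. The deposited TPM values served only as an alternative.

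CPM is the expected count over the library's sum, times 1000000. Totals of 27713981 to 43219891 counts set the precision. Genotype was tested with edgeR 4.0.16 (R 4.3.3) on rounded counts, with TMM factors, filterByExpr, the robust quasi-likelihood fit and labelled sex as a term, at a threshold of 0.05. For the interaction, each group had its own mean. The procedure was tested on simulated data without on-off levels between mice, so that test does not cover genes like these. Similar genes were found with BLAST+ 2.17.0 among GENCODE M21 transcripts (GRCm38), matched by Ensembl identifier, and those positions serve as approximate places.

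Named genes follow a rule: the 5 smallest genotype p-values, the 12 highest single-library levels, genes within 20 Mb of Gars, close pairs of like class, genes next to the bounds and the 2 smallest interaction p-values. One gene that the rule names is not reported here. Other names were chosen after their values were seen. The predicted genes and lists were chosen with earlier results of these data known. Nothing in the labels says how the mice are related. The p-values set differences between groups against the spread between these mice, which the tests treat as independent. Alternatives were DESeq2 1.42.0, limma 3.58.1 on log2(TPM + 1), other scalings, filters and bounds, and libraries left out. Adding predicted genes to their similar gene was chosen after seeing the data.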

Additional observations from a re-analysis of the deposited data

Results flagged for a closer look

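The 27 named genes were examined in each genotype for a single library far from the other 5, and 18 of 54 groups of 6 libraries held one, by Dixon's test at the 95% level. Chance alone flags about 1 group in 20, but these genes were chosen for wide ranges, so the flags describe them and test nothing.

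Some single libraries stood high. Gm10182 was at 53.7 CPM, Gm4735 at 108 CPM and Gm5506 at 79.7 CPM in female P278KY 7, and Gm9770 was at 5.11 CPM in male P278KY 13. Among wt mice, Gm4735 was at 113 CPM and Gm5506 at 78.4 CPM in male wt 9, Gm14150 at 216 CPM in male wt 6, and Gm13242 at 8.43 CPM and Gm9770 at 4.51 CPM in male wt 19.

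Single libraries stood low in the others. In male P278KY 5, Gm12033 was at 1.38 CPM, and Gm20899 and Gm9800 were at 0. In female wt 1, Gm12033, Gm20899 and Gm9800 were at 0. In female wt 2, Gm10260 was at 0.00527 CPM, Gm26619 at 0.0999 CPM and Gm15487 at 0. Male wt 19 is one of the 2 libraries whose sex marks disagree with the label, and the part of this in the value of Gm13242 was not tested.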

How the results depend on the processing

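The number of predicted genes was 174 with a highest level of at least 2 CPM and 495 with the deposited TPM in place of CPM, of which 102 were among the 109, and it lay between 73 and 129 under the other bounds and scalings. Intermediate values numbered 40 with the low bound at 0.2 of the highest and 130 with the high bound at 0.667 of it, beside 87. No predicted gene was called by genotype under any scaling, filter, tool or omitted library that was run. Genes whose genotypes do not overlap numbered 0 to 2 with single libraries left out: Gm10250 without male P278KY 13, beside 0.622% of all genes tested, and Gm6984 and Gm9816 without female wt 2, beside 0.422%. The interaction called 9 genes with DESeq2, beside 1.73% of all genes with an adjusted p. It called 2 (Gm13736 and Gm7816) without both libraries whose sex marks disagree. With single libraries left out it called 0 to 1, the 1 being Gm13736 without female wt 14. The share over all genes is not given for the fits with libraries left out, so those counts are not set against a background. The cause of these calls was not tested. Along the whole of chromosome 6 lay 5 predicted genes.

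The log2 fold change of Cbx3 was 0.49 with DESeq2, where it was called, and 0.45 to 0.57 with single libraries left out. Of 24 named genes in the fit, 14 changed sign under some alternative, and none was called under any. With plain library totals Gm12033 was at -0.00070 and Gm20899 at -0.0073. With limma on TPM the values were 0.91 for Gm15710, -0.0098 for Gm20899, -0.22 for Gm3373, -0.65 for Gm7887 and -0.084 for Gm8108. Without the sex term they were -0.22 for Gm3373, -0.13 for Gm7887 and -0.25 for Gm8108. Without both libraries of doubtful sex they were 1.06 for Gm10116, -0.016 for Gm3373, -0.12 for Gm7887, -0.056 for Gm8108 and 0.065 for Gm9800.

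With single libraries left out, the log2 fold change ran from -1.31 to 0.71 for Gm10116, -2.10 to 1.25 for Gm10182, -0.64 to 3.01 for Gm10243, -0.30 to 0.33 for Gm12033, -4.0 to 0.13 for Gm14150 and -2.57 to 1.16 for Gm15710. It ran from -0.31 to 0.33 for Gm20899, -2.83 to 1.22 for Gm26825, -0.93 to 0.53 for Gm3373, -0.17 to 0.75 for Gm3591, -1.05 to 0.76 for Gm7887, -0.42 to 0.56 for Gm8108, -2.69 to 0.98 for Gm8355 and -0.52 to 0.11 for Gm9800.

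No paired analysis was possible because the groups share no mouse numbers. Fragments that fit a predicted gene and its similar gene equally are divided by estimate, which depth does not resolve. Intervals and limits cover counting error only.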

Other observations

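No similar gene other than Cbx3 was called by genotype on either count, by edgeR or DESeq2. Akr1b3, the aldose reductase gene resembled by Gm12138, had a log2 fold change of 0.15 ± 0.07 with Gm12138 added and 0.27 ± 0.11 alone, with edgeR adjusted p-values of 1.00 for both. Kpna2, an importin gene resembled by Gm10259, had a log2 fold change of -0.0011 ± 0.08 with Gm10259 added and 0.23 ± 0.13 alone. Pcnp had 0.09 ± 0.03 both with Gm7887 added and alone. DESeq2 called 32 genes by genotype with predicted genes added to their similar genes and 33 with them counted apart. Of the 80 similar genes, 0 were among those called when added and 1 (Cbx3) when counted apart.

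Gm13736, which resembles Srp9, a signal recognition particle gene, was high in female P278KY 4, 7 and 10 and in female wt 14, and so was Gm16589, which resembles Aida. Both similar genes lie on chromosome 1, at 182.1 and 183.3 Mb. Gm13736 was the gene called for the interaction once female wt 14 was left out. The sex marks of that library went against its label, with Ddx3y at 46.6 CPM and Xist at 0.562 CPM.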
